A study of Mus musculus with 5 samples.

Results

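Dppa2, Dppa4 and Dppa5a are 3 of the developmental pluripotency-associated genes, a set named for transcripts enriched in pluripotent cells. They were picked by symbol among the 16032 genes that the array annotation names, and each is read by 1 of 22871 probes. The probe of Dppa5a carries the older symbol Dppa5. The genes were chosen with their levels on these arrays known, so their values are given here as a description and without tests.

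The cells were male mouse embryonic stem (ES) cells of strain 129, derived from E14tg2a, and all of them express myr-Akt-Mer, an Akt kinase fusion that 4-hydroxytamoxifen (4OHT) switches on. Of the 5 arrays, 2 held Akt-spheres, floating germ cell-like colonies grown with 1 µM 4OHT on OP9 stromal cells, 1 from line 21 and 1 from line 42. Treatment of those ES cells with 4OHT began 3 days before sphere induction, and OP9 cells were removed by their adhesion to a dish before RNA extraction. The other arrays, called ES-type below, held line 21 ES cells with 1 µM 4OHT, ES-like cells reverted from line 21 spheres on embryonic fibroblasts, and line 21 ES cells without 4OHT, 1 array each. No ES cell culture of line 42 was analysed here, and for line 42 the effect of the line and that of sphere culture cannot be told apart. The 2 sphere arrays come from different lines and are not repeats of one culture. The p-values measure only the spread between these 5 arrays, whose small number limits the precision.

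Dppa2 and Dppa4 encode SAP-domain proteins that bind DNA and chromatin and work as a pair. In mouse ES cells they keep developmental promoters that carry both activating and repressive histone marks free of DNA methylation, and they activate Dux and, through it, genes of the 2-cell embryo such as the Zscan4 family. Dppa5a encodes a small protein with a KH domain, the fold of many RNA-binding proteins, and is abundant in ES cells and early germ cells. All of these genes are known as markers of pluripotent and early germ cells and are silent in most somatic tissues.

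Summed intensity was 15213700 to 19321100 per array, and each array's median probe intensity was between 49.995 and 50.015. Levels below are probe intensity values as deposited. Levels of different probes are not compared with each other, because probes differ in their response. In these bulk samples, fewer cells of a type and less RNA per cell cannot be told apart.

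Dppa4 read 7.65 in line 21 spheres and 499.55 in line 42 spheres, against 4803 in ES cells with 4OHT, 1733 in reverted cells and 4619 in ES cells without 4OHT. Both sphere arrays lay below all 3 ES-type arrays. The line 21 sphere value lay below the lower quartile of that array's listed probes (13.40) and above its lowest listed probe (3.40), so a fold against it depends on the pseudocount. On the log2 scale the spheres averaged 6.04 ± 4.10 (SD, n = 2) and the ES-type arrays 11.72 ± 0.85 (SD, n = 3).

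Dppa2, the partner of Dppa4, read 11.55 in line 21 spheres and 221 in line 42 spheres, against 1562 in ES cells with 4OHT, 315 in reverted cells and 760.4 in ES cells without 4OHT. Again the groups did not overlap, but the line 42 sphere value was close to that of the reverted cells. The genes were chosen with these levels known, and the share of all genes without overlap was not counted. Nothing is therefore read from the lack of overlap. In line 21 spheres the Dppa2 probe, too, read below the array's lower quartile. The log2 means were 5.73 ± 2.89 (SD, n = 2) in spheres and 9.49 ± 1.14 (SD, n = 3) on the ES-type arrays.

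Dppa5a read 1014 in line 21 spheres and 6732 in line 42 spheres, against 51355 in ES cells with 4OHT, 49687 in reverted cells and 58362 in ES cells without 4OHT. Both sphere values lay far above their arrays' medians, so Dppa5a remained well measured in spheres while being lower there. The ES-type arrays differed little among themselves, with a log2 mean of 15.69 ± 0.19 (SD, n = 3), whereas the spheres averaged 11.35 ± 1.89 (SD, n = 2). RefSeq lists the pseudogene copies Dppa5b and Dppa5c on the same chromosome, 9, and whether the probe also reads them was not tested.

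**Figure D1:**
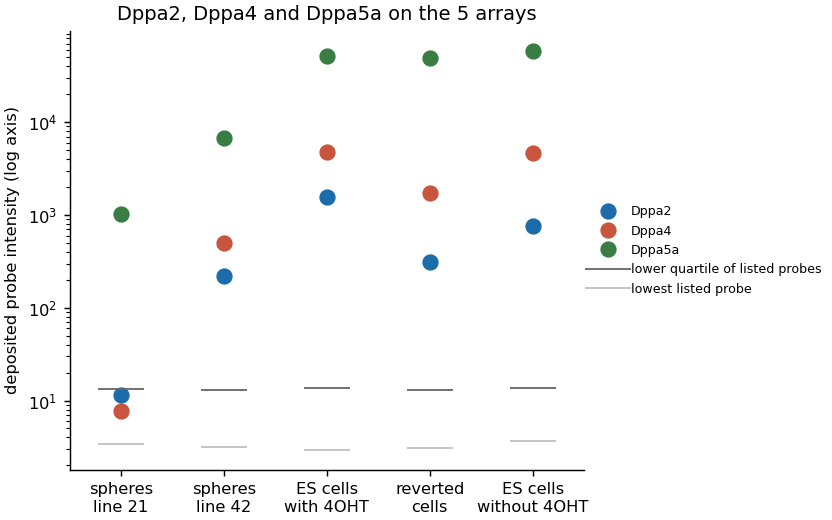
Deposited probe intensity (log axis) of Dppa2, Dppa4 and Dppa5a on the 5 arrays, 1 point per gene and array, with grey bars for each array's lower quartile and lowest listed probe. Each gene is lowest in line 21 spheres, where Dppa4 (7.65) and Dppa2 (11.55) lie below the lower quartile of 13.40; heights of different genes are not comparable.

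Against the 3 ES-type arrays, Dppa4 averaged 51.2-fold lower in spheres (log2 -5.68), Dppa5a 20.2-fold lower (log2 -4.34) and Dppa2 13.6-fold lower (log2 -3.77), while the median over all 10589 genes compared was 0.00. With a pseudocount of 16 in place of 1, Dppa4 was 30.7-fold lower (log2 -4.94), Dppa5a 20.1-fold lower (log2 -4.33) and Dppa2 9.13-fold lower (log2 -3.19). Only 2 genes had a more negative difference than Dppa4 in this ranking, in which Dppa5a stood 24th and Dppa2 47th. All 3 were lower by 2-fold or more in each of the lines, as were 5.21% of all genes compared. The choice of the genes rests on this difference, so nothing is read from that count. All 3 passed the filter on low values, and Dppa2 and Dppa4 did so through arrays other than that of line 21 spheres.

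The sphere mean hides a wide gap between the lines. Against ES cells with 4OHT, the culture of the same line with the same active kinase, line 21 spheres were 522-fold lower for Dppa4 (log2 -9.03), 117-fold lower for Dppa2 (log2 -6.87) and 47.6-fold lower for Dppa5a (log2 -5.57). Because Dppa4 and Dppa2 read below the lower quartile in line 21 spheres, the size of their folds is not fixed: with a pseudocount of 16 they were 194-fold and 54.5-fold lower (log2 -7.60 and -5.77). Against ES cells without 4OHT the line 21 differences were -9.11, -5.97 and -5.89 in the same order, and the first of these was the most negative of 10021 genes. With a pseudocount of 16 those of Dppa4 and Dppa2 were -7.65 and -4.86. In line 42 spheres, differences from ES cells with 4OHT were smaller and more alike: -3.23 for Dppa4, -2.78 for Dppa2 and -2.90 for Dppa5a. Against ES cells without 4OHT they were -3.31, -1.88 and -3.22. At least 2-fold lower in both lines were all 3 genes against ES cells with 4OHT (6.84% of all genes) and against ES cells without 4OHT (6.01% of all genes). These comparisons share the sphere arrays, so they are not separate evidence.

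**Figure D2:**
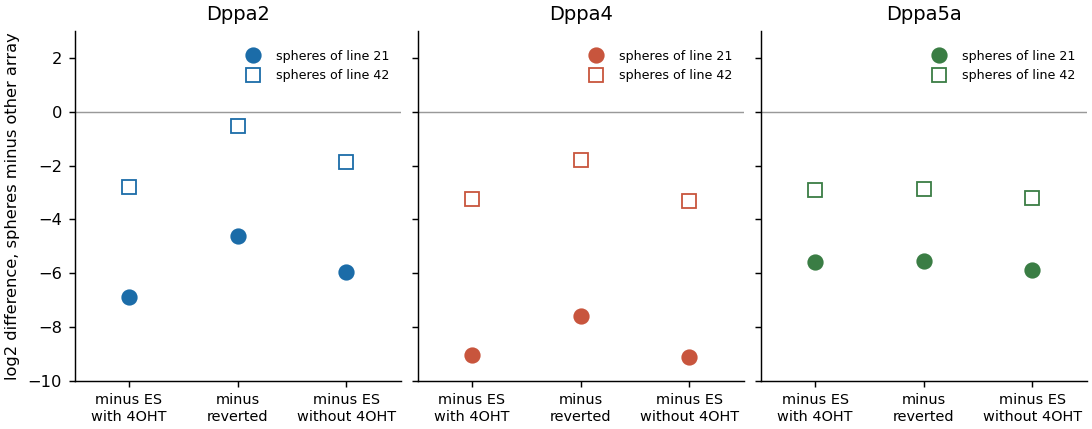
Log2 difference of each sphere array (filled circles, line 21; open squares, line 42) from each ES-type array, 1 panel per gene, with a line at 0. Line 21 differences reach -9.11 for Dppa4, and the smallest is that of Dppa2 between line 42 spheres and reverted cells (-0.51).

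Line 42 spheres were set directly against line 21 spheres, with 1 array each and no replicate check. Dppa4 was 55.8-fold higher in line 42 spheres (log2 5.80), the second highest of 9954 genes compared. Dppa2 was 17.1-fold higher (log2 4.09, 15th) and Dppa5a 6.39-fold higher (log2 2.68, 69th). All 3 were at least 2-fold higher, as were 7.86% of all genes. The middle 95% of genes lay between -1.74 and 1.64, and all 3 genes lay above that range. With a pseudocount of 16 the values were 4.40 for Dppa4 and 3.06 for Dppa2.

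Markers of other cell types also differed between the 2 sphere arrays. The summed level of the 10 OP9 stroma and fibroblast markers was 276.5 in line 42 spheres and 697 in line 21 spheres, against 1008 to 1187 on the ES-type arrays. Thy1 (230.1 to 464.3) and Acta2 (415.1 to 605.7) made up most of each ES-type sum. In spheres of lines 21 and 42 Thy1 read 24.78 and 16.12, and Acta2 80.69 and 62.44. Mgp, a matrix protein and the largest part of the line 21 sum, read 10.07 in line 42 spheres and 327.6 in line 21 spheres. The collagens Col1a1, Col1a2 and Col3a1 were listed on every array, at 10.02 to 102. The part of such cells in the line difference was not tested.

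Reverted cells were compared with their parent line 21 spheres and with ES cells without 4OHT, which asks whether the genes return to the ES cell level. Against the parent spheres, Dppa4 was 193-fold higher in reverted cells (log2 7.60), the second highest of 10035 genes. Dppa5a was 47.2-fold higher (log2 5.56, 6th) and Dppa2 24.3-fold higher (log2 4.60, 26th). All 3 were at least 2-fold higher, as were 9.4% of all genes. With a pseudocount of 16 the values were 6.17 for Dppa4 and 3.54 for Dppa2.

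The level reached in reverted cells differed between the genes. By deposited intensity, Dppa5a stood in reverted cells at 85.1% of its level in ES cells without 4OHT, Dppa2 at 41.4% and Dppa4 at 37.5%. On the centred log2 scale, which also shifts each array, Dppa5a was 1.26-fold lower (log2 -0.33, but slightly higher with quantile normalization), Dppa2 2.58-fold lower (log2 -1.37) and Dppa4 2.85-fold lower (log2 -1.51). Dppa2 and Dppa4, but not Dppa5a, were thus at least 2-fold lower in reverted cells than in ES cells without 4OHT, as were 6.33% of all genes. These are single arrays, and no difference between the genes was tested. Spheres against reverted cells gave -4.70 for Dppa4 (-3.97 with a pseudocount of 16), -4.22 for Dppa5a and -2.56 for Dppa2. There Dppa4 and Dppa5a were at least 2-fold lower in both lines (5.81% of all genes), while Dppa2 in line 42 spheres was only 1.42-fold lower.

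**Figure D3:**
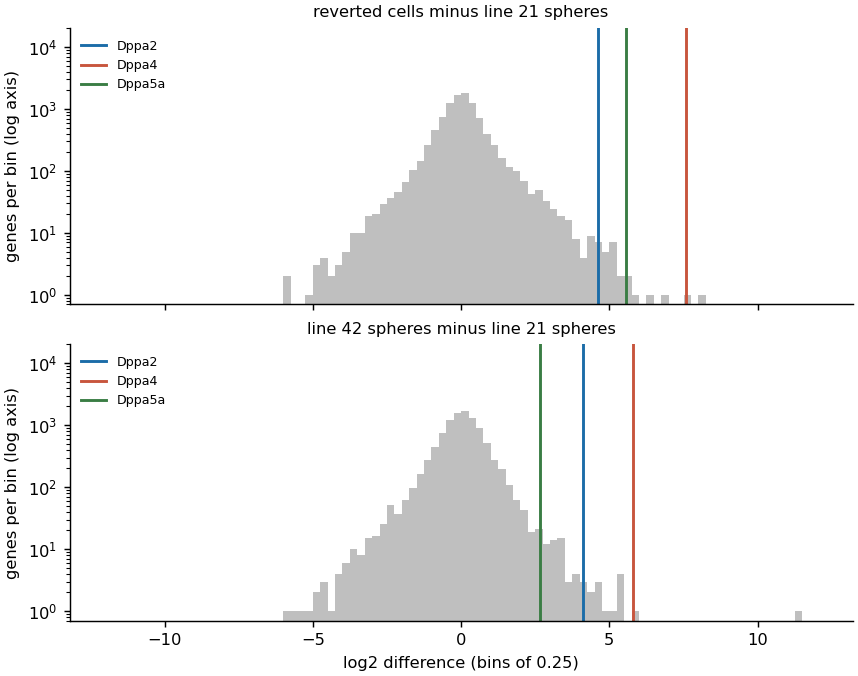
Number of genes (log axis) per bin of log2 difference, for reverted cells minus line 21 spheres (top) and line 42 spheres minus line 21 spheres (bottom), with vertical lines at Dppa2, Dppa4 and Dppa5a. All 3 lie in the upper tail of both, with Dppa4 at 7.60 and 5.80.

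The active kinase in ES cell culture was examined by setting ES cells with 4OHT against those without, again with 1 array each. Dppa2 was 1.87-fold higher with 4OHT after centring (log2 0.90), under the 2-fold mark, and 2.05-fold higher without centring (log2 1.04), past it. Dppa5a was 1.25-fold lower (log2 -0.32). Dppa4 was 1.06-fold lower after centring (log2 -0.08), although its deposited intensity was higher with 4OHT (4803) than without (4619), so its direction depends on the scaling. After centring 0 of the 3 genes were at least 2-fold apart, against 2.55% of all genes that were higher with 4OHT by that much and 2.4% that were lower. Without centring 1 of the 3 was, Dppa2.

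The order of the levels over the arrays was not the same for each gene. Dppa2 was highest in ES cells with 4OHT, then in ES cells without 4OHT, reverted cells, line 42 spheres and line 21 spheres. By deposited intensity Dppa4 followed the same order, but after centring its first 2 arrays changed places, 0.08 apart on the log2 scale. For Dppa5a the order began with ES cells without 4OHT, followed closely by ES cells with 4OHT and reverted cells, which were 0.01 apart, and it ended in the same way. For scale, the difference between the 2 sphere arrays had an SD over all genes that, divided by the square root of 2, was 0.59 on the log2 scale. The steps among the ES-type arrays of Dppa5a do not exceed it. This value includes differences between the lines and is not the error of 1 array, so it does not show whether those steps are noise.

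For each of the 3 genes the genes of most like pattern over the 5 arrays were sought among 10588 others. The measure was the root mean square (RMS) difference of gene-centred log2 profiles, where 0 would be an identical pattern. Leaving Dppa2, Dppa4 and Dppa5a themselves aside, the closest to Dppa4 were Rps4l, a ribosomal protein paralog (RMS 0.57), Zfp42, the ES cell zinc-finger gene also called Rex1 (0.82), Pla2g1b, a secreted phospholipase (1.12), Fmr1nb (1.18) and a probe annotated to Rpl10 (1.27). Rps4l read 38.1 in line 21 spheres and 995.7 in line 42 spheres, against 15352 in ES cells with 4OHT, 11316 in reverted cells and 15508 in ES cells without 4OHT. It thus shared the low spheres and the gap between the lines. The other probe of Pla2g1b gave a log2 difference of -0.80 between spheres and ES-type arrays, against -5.21 for the one used. In line 21 spheres Fmr1nb (8.05) and the Rpl10 probe (8.24), like Dppa4, read below that array's lower quartile (13.40).

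Dppa2 had Fmr1nb (RMS 0.58), the pseudogene Znf41-ps (0.65), Dnmt3l, the cofactor of the de novo DNA methyltransferases (0.70), Nf2, a tumour suppressor of growth control (0.71), and Fthl17e, a ferritin-like gene (0.72), as its closest patterns. Dnmt3l read 176 in line 21 spheres and 1909 in line 42 spheres, against 5530 in ES cells with 4OHT, 3289 in reverted cells and 4218 in ES cells without 4OHT. Like Dppa2, it was highest in ES cells with 4OHT. In line 21 spheres the probes annotated to Fmr1nb (8.05), Nf2 (3.77) and Fthl17e (4.35) read below that array's lower quartile (13.40), like Dppa2. Those of Nf2 and Fthl17e were near its lowest listed probe (3.40), so these likenesses rest in part on very dim values.

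Dppa5a was most like Fam25c (RMS 0.36), Hspb1, a small heat shock protein (0.38), the brighter Pla2g1b probe (0.43), Mylpf, a myosin light chain (0.60), and Sycp3 of the meiotic synaptonemal complex (0.60). The 3 genes were not each other's closest matches. Dppa2 and Dppa5a were 0.89 apart, Dppa2 and Dppa4 1.13, and Dppa4 and Dppa5a 1.28. Seen from Dppa4, Dppa2 ranked 4th and Dppa5a 7th among all genes. Seen from Dppa2, Dppa5a ranked 13th and Dppa4 36th, and seen from Dppa5a, Dppa2 ranked 29th and Dppa4 110th. The median gene was 3.38 from Dppa4, 2.38 from Dppa2 and 2.31 from Dppa5a.

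**Figure D4:**
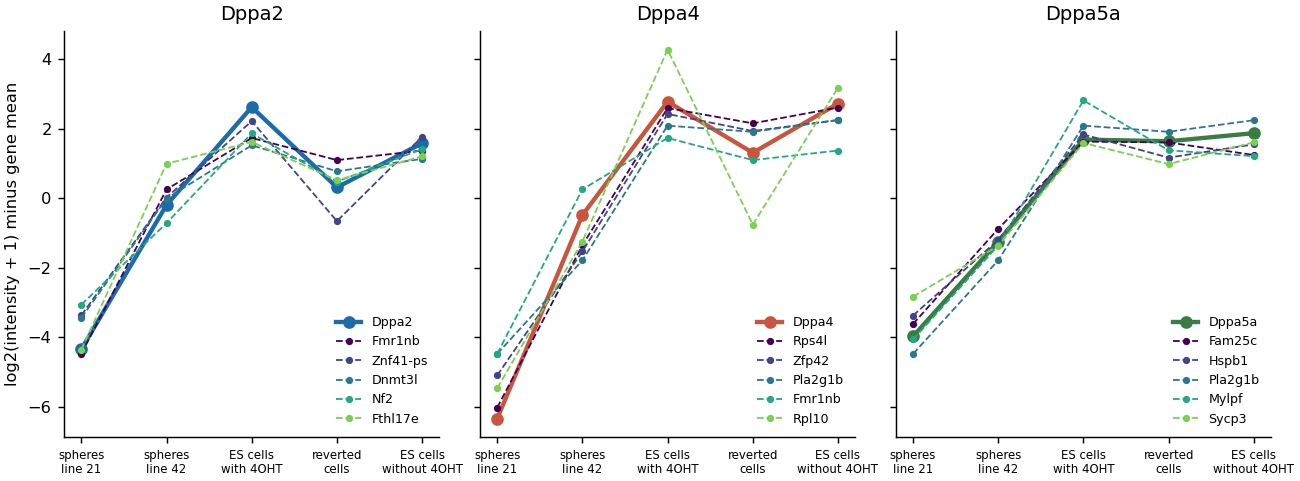
Log2(intensity + 1) minus the gene's own mean over the 5 arrays, before centring of arrays, for each gene (thick line) and its 5 most like genes (dashed), 1 panel per gene; lines only join the points of a gene. Rps4l runs closest to Dppa4, Fmr1nb to Dppa2 and Fam25c to Dppa5a.

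Dppa2 and Dppa4 are neighbours on chromosome 16, and Dppa5a lies on chromosome 9, in RefSeq's gene order. The 4 protein-coding genes on each outer side were read as context, a choice made after the values were seen, and 5 of the 16 could be compared. The nearest on the Dppa2 side is Morc1, which silences transposons in male germ cells. It read 32.3 in line 21 spheres and 33.9 in line 42 spheres, against 1400.5, 827.4 and 1507 in ES cells with 4OHT, reverted cells and ES cells without 4OHT (log2 -5.14, SE 0.34, limma adjusted p = 0.00716). Unlike Dppa2 and Dppa4, Morc1 was at nearly the same level in both sphere lines.

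On the other side of Dppa4, the adhesion gene Nectin3 (log2 -0.31, limma adjusted p = 0.723) and the immune receptor gene Cd96 (log2 -0.07, limma adjusted p = 0.934) did not pass. The gene next to Dppa5a is Ooep, a KH-domain gene of the maternal complex of oocytes. Its log2 difference was -5.72 (SE 0.41, limma adjusted p = 0.00754), with 32.5 and 73.0 in spheres of lines 21 and 42 against 2013 to 3172 on the ES-type arrays. Mto1, a mitochondrial gene further along, did not pass (log2 -0.64, limma adjusted p = 0.338).

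Over all genes, limma called 1.47% lower and 0.963% higher in spheres than on the ES-type arrays. At an unadjusted p under 0.05 were 2001 of 10589 genes, lower and higher together. The lists that follow are read from that fit. It rests on few arrays: leaving out the untreated ES cell array left 0 genes called (1315 at an unadjusted p under 0.05), so the calls of Ooep, Morc1 and Eras were lost (limma adjusted p = 0.0696, 0.0612 and 0.0541).

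Of the KH-domain and maternal complex genes, 4 of 10 could be compared and limma called 1 lower, Ooep, and 0 higher, with a median log2 difference of -2.58. Khdc3, also of the maternal complex, read 10.83 and 9.54 in spheres of lines 21 and 42, 294 in ES cells with 4OHT, 20.2 in reverted cells and 551 in ES cells without 4OHT (log2 -3.76, SE 1.35, limma adjusted p = 0.215). Reverted cells were near the sphere level for this gene, and without their array it passed (limma adjusted p = 0.0148). Padi6, at -1.41, and Tle6, at -0.77, did not pass.

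The ES-cell-associated transcripts are genes first listed together with these 3 for their enrichment in ES cells. Of 8, 7 were compared, and limma called 1 lower, Eras, an ES cell Ras protein upstream of PI3K (log2 -4.78, SE 0.36, limma adjusted p = 0.00785), and 0 higher. Their median was -2.00. Nanog, a transcription factor of the core pluripotency network, read 5523 and 4003 in spheres of lines 21 and 42 against 3839 to 5480 on the ES-type arrays (log2 0.04, limma adjusted p = 0.958), so its groups overlapped. Dnmt3l (log2 -2.87, limma adjusted p = 0.179) and Tdrd12, a transposon-defence gene (log2 -2.00, limma adjusted p = 0.221), passed without the line 42 sphere array (limma adjusted p = 0.0209 and 0.0225).

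Of 10 genes that Dppa2 and Dppa4 bind or activate in mouse ES cells, only Mael and Syce1 could be compared over all arrays. Of these, 0 passed limma, and 1 had an unadjusted p under 0.05, as had 2001 of all 10589 genes. Mael, a transposon-defence gene of germ cells, read 5.88 and 14.56 in spheres of lines 21 and 42 against 203 in ES cells with 4OHT, 29.6 in reverted cells and 133 in ES cells without 4OHT (log2 -3.18, SE 0.84, limma adjusted p = 0.125). As with Dppa2 and Dppa4, its order was ES cells with 4OHT, ES cells without, reverted cells, line 42 spheres and line 21 spheres. Without the array of reverted cells it passed (limma adjusted p = 0.0264). Syce1, a meiotic synaptonemal complex gene, read 51.3 and 219 in spheres of lines 21 and 42 against 77.1 to 174 (log2 -0.31, limma adjusted p = 0.847).

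The probe of Zscan4c, a gene of the 2-cell-like state, had no value in reverted cells. It read 12913 in line 42 spheres and 3.59 in line 21 spheres, against 1347 in ES cells with 4OHT and 1058 in ES cells without 4OHT. The line 21 value is next to the lowest listed probe of its array (3.40), so the size of the difference is not fixed. Between line 42 and line 21 spheres its log2 difference ranked first of 9954 genes, at 11.41 with a pseudocount of 1 and 9.32 with 16. It was named through an older symbol, Gm397, and the Zscan4 genes are near-identical copies that a probe may read together.

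Dppa3, a maternal factor and germ cell marker that shares the name but no family with these genes, also had its 2 sphere lines far apart. It read 9198 in line 42 spheres and 223 in line 21 spheres, against 171 in ES cells with 4OHT, 1626 in reverted cells and 434.7 in ES cells without 4OHT (log2 1.54, SE 1.66, limma adjusted p = 0.684). Its sphere values lay on both sides of the ES-type arrays' centre, and it ranked 5th of 9954 genes between line 42 and line 21 spheres. Dppa1 read 8.89 and 9.02 in spheres of lines 21 and 42 against 7.90 to 19.79, too low on all arrays to be compared.

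DNA methylation genes were read because Dppa2 and Dppa4 act against methylation of promoters. Of 8 compared, limma called 0, and the median was -1.36. At an unadjusted p under 0.05 were 7 lower and 0 higher, against 2001 of all 10589 genes, lower and higher together. The de novo methyltransferases Dnmt3a (log2 -1.92, limma adjusted p = 0.0726) and Dnmt3b (log2 -1.67, limma adjusted p = 0.163) did not pass. Nor did the demethylating enzyme genes Tet2 (log2 -1.41, limma adjusted p = 0.0601) and Tet1 (log2 -1.32, limma adjusted p = 0.128). Tet2 was dim, at 11.86 and 9.09 in spheres of lines 21 and 42 against 24.22 to 36.57, and passed the filter on low values only through reverted cells. Dnmt3a read 154 and 122 in spheres of lines 21 and 42 against 324 to 686, without overlap, and passed when the array of reverted cells was left out (limma adjusted p = 0.0327).

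In the machinery of bivalent chromatin, limma called 0 of 13 genes, and the median was -0.19. At an unadjusted p under 0.05 were 2 lower and 1 higher. That is near the share over all genes, 2001 of 10589, so nothing is read from it. The largest differences were those of the Polycomb genes Eed (log2 -1.47, limma adjusted p = 0.162), Ring1 (log2 1.43, limma adjusted p = 0.103), Jarid2 (log2 -1.22, limma adjusted p = 0.0716) and Ezh1 (log2 -1.15, limma adjusted p = 0.292). Ring1 was dim on the ES-type arrays, at 11.2 to 16.73, and passed the filter on low values only through spheres. It read 51.94 and 30.21 in spheres of lines 21 and 42. Ezh1 read below the lower quartile on both sphere arrays and passed that filter only through reverted cells (35.66). With a pseudocount of 16 the log2 differences of Ring1 and Ezh1 were 0.90 and -0.57. In the SUMO pathway, which acts on Dppa2 through the ligase Pias4, limma called 0 of 9 genes, with a median of 0.17. Here 2 were lower and 1 higher at an unadjusted p under 0.05, against 2001 of all 10589 genes. Pias1 (log2 0.94), Pias2 (-0.90), Senp3 (-0.87) and Senp2 (-0.51) differed most. Pias4 itself read 443 and 434 in spheres of lines 21 and 42 against 409 to 479, with overlapping groups.

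**Figure D5:**
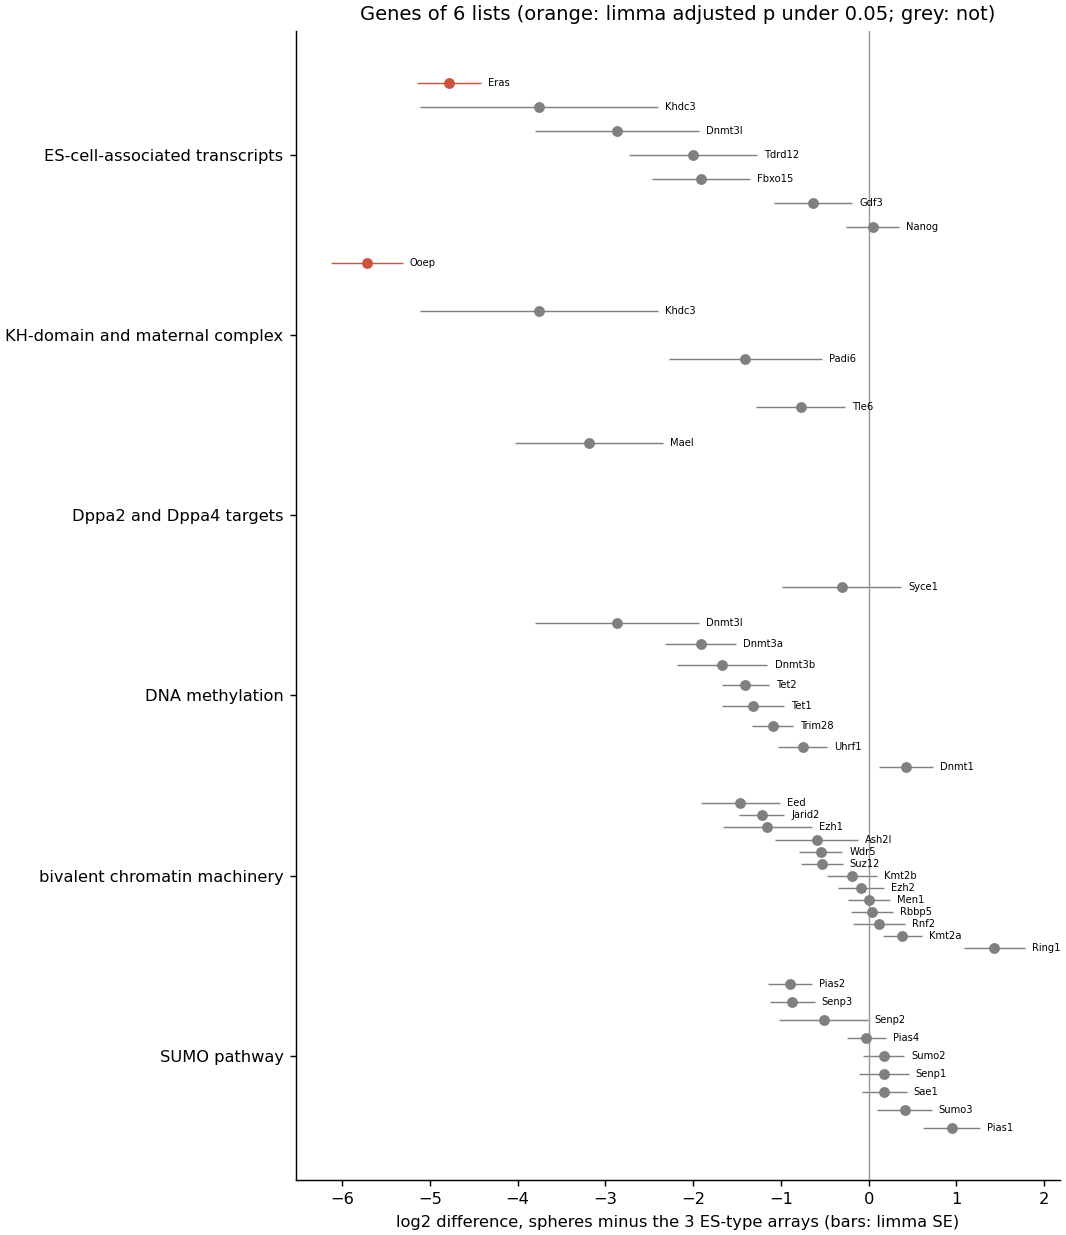
Log2 difference, spheres minus the 3 ES-type arrays, with limma's SE, for the compared genes of 6 lists; orange marks a limma adjusted p under 0.05. Only Eras (-4.78) and Ooep (-5.72) are orange in these lists.

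The labelled cell types were checked against their markers. Of 9 ES cell markers limma called 3 lower in spheres, Nr0b1 (log2 -5.23), Fgf4 (log2 -4.17) and Tdgf1 (log2 -2.02), and 0 higher. Zfp42, one of the genes most like Dppa4, missed the threshold (log2 -5.51, SE 0.96, limma adjusted p = 0.0502) and reached it with quantile normalization and without centring (limma adjusted p = 0.0499 and 0.0472). The summed level of these markers was 13219 and 17375 in spheres of lines 21 and 42 against 43360.3 to 50378.5 on the ES-type arrays, and all 9 had a value on every array. In both sphere lines 5 of the 9 markers were at least 2-fold lower than on the ES-type arrays, as were 5.21% of all genes compared. For Nanog, Utf1, Sall4 and Lin28a the groups overlapped. Zfp42 and Tdgf1 make up most of the gap between the sums. Fgf4 was dim in spheres, at 18.33 in line 21 and 7.66 in line 42, the second below its array's lower quartile (13.01). On the ES-type arrays it read 123.7 to 362.2. Esrrb, another of the 5 lower markers, was dim on all arrays. It read 7.96 and 13.14 in spheres of lines 21 and 42 against 23.37 to 40.57 on the ES-type arrays. Sall4 was dim too, at 34.53 to 47.13 over the 5 arrays. The part of a shift in ES cell genes in the levels of Dppa2, Dppa4 and Dppa5a was not tested. Fgf4 lost its call without line 42 spheres (limma adjusted p = 0.0906), ES cells with 4OHT (0.0984) or ES cells without 4OHT (0.146), Nr0b1 without ES cells without 4OHT (0.0541), and Tdgf1 without any 1 of the arrays (0.0583 to 0.160).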

How the data were processed

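Total RNA of 5 cultures was measured on 1-colour Toray arrays, per the labels. The values are probe intensity values on a linear scale that the authors deposited for 22871 probes. All columns were used. How background was corrected, how arrays were normalized and why some cells are empty is not stated. Each array had a median of about 50 over its listed probes, and 1392 to 2084 probes per array were empty and were not filled in.

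Probes were named from the platform annotation and updated through the RefSeq gene table of GRCm38.p6: of the array's symbols, 12239 were current, 3787 matched exactly 1 synonym and were replaced, and 61 stayed as they were, while 6607 probes had no name. A gene with several probes was represented by the brightest. Chromosomes, and the order of genes by start position, were also taken from the RefSeq gene table.

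Values were taken to log2(value + 1) and the median of each array, over 18884 probes with no empty cell, was set equal. Fold differences are on that scale and understate the change of dim probes. A gene was compared if no array of the comparison lacked its value and if, on 1 or more of these, it was at or above the 40th percentile. limma 3.58.1 in R 4.3.3 (lmFit, eBayes, Benjamini-Hochberg adjustment over all genes tested, threshold 0.05) was run for spheres (n = 2) against the 3 ES-type arrays, with 3 residual degrees of freedom. It was also run on simulated data with independent noise and no gap between the sphere lines. That run does not check the fit for genes whose sphere lines differ. The other 7 comparisons count genes at least 2-fold apart.

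Genes named are the members, the 5 genes of most like pattern for each, list genes that passed limma, up to 4 per list with the largest differences, and a few fixed names. Outside that rule, neighbours in gene order, chosen after the values were seen, and some further list genes are named too. The likeness is the root mean square difference of gene-centred log2 profiles over the 5 arrays. The 11 lists hold Dppa-named genes, KH-domain and maternal complex genes, ES-cell-associated transcripts, Dppa2 and Dppa4 targets, bivalent chromatin machinery, DNA methylation, the SUMO pathway, and markers of ES cells, primordial germ cells, OP9 stroma and fibroblasts, and blood and endothelium. The members, lists and tests were chosen with earlier results of these data known.

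The alternatives were a pseudocount of 16, no filter or a 60th percentile filter, no centring, quantile normalization, the mean of all probes, filled empty cells and leaving out each array in turn.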

Additional observations from a re-analysis of the deposited data

Results flagged for a closer look

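Zscan4c stood on opposite sides of the ES cells in the 2 sphere lines, with 12913 in line 42 spheres and 3.59 in line 21 spheres against 1347 in ES cells with 4OHT and 1058 in those without. The deposited intensity in line 42 spheres was 3597 times that in line 21 spheres, but the line 21 value is next to its array's lowest listed probe (3.40), so the size of this ratio is not fixed. With a pseudocount of 16 the fold after centring was 640. The reverted cells had no value, each line has 1 sphere array, and the difference was not tested.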

How the results depend on the processing

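Of 168 differences of Dppa2, Dppa4 and Dppa5a under the 7 processing alternatives, 164 moved by less than the spread used for comparison, which is wide because the sphere lines differ. Without centring, Dppa2 passed 2-fold in ES cells with against without 4OHT (log2 1.04). The sign of 2 small differences, both under 2-fold, turned: Dppa4 with against without 4OHT when arrays were not centred, and Dppa5a in reverted cells against ES cells without 4OHT with quantile normalization. With a pseudocount of 16 the log2 difference of reverted cells from line 21 spheres was 6.17 for Dppa4 and 3.54 for Dppa2, and that of line 42 from line 21 spheres was 4.40 for Dppa4 and 3.06 for Dppa2; the larger pseudocount weighs most on the dim line 21 values. Leaving out 1 array at a time, spheres minus ES-type arrays ranged from -8.58 to -2.78 for Dppa4, from -5.82 to -1.72 for Dppa2 and from -5.68 to -3.00 for Dppa5a, the smallest without line 21 spheres and the most negative without line 42 spheres. The number of genes limma called then ranged from 0 to 172 lower and from 0 to 112 higher, against 258 in all with every array: 148 without line 21 spheres, 98 without line 42 spheres, 32 without ES cells with 4OHT, 284 without reverted cells and 0 without untreated ES cells (1315 at an unadjusted p under 0.05). Counts of genes at least 2-fold lower in spheres, which need only 1 line once the other is left out, ranged from 550 to 1079 against the ES-type arrays, 1050 to 1248 against ES cells without 4OHT, 1140 to 1406 against those with 4OHT and 943 to 1174 against reverted cells. In ES cells with 4OHT the count of genes at least 2-fold lower than without was 236, against 143 with a pseudocount of 16 or a 60th percentile filter and 393 with no filter; the cause was not tested. Of the list genes, Tdgf1 missed limma's threshold with quantile normalization (limma adjusted p = 0.0568) and with any 1 array left out and Zfp42 reached it in 5 processing alternatives. No paired analysis was possible because the groups share only 1 line number, 21, and line 42 has no ES-type array. The lone arrays allow no error for most comparisons, and values near an array's lowest probes limit the folds of Dppa2 and Dppa4.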

Other observations

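Germ cell markers, read because these genes are also known from primordial germ cells, had mostly positive differences, where those of Dppa2, Dppa4 and Dppa5a were negative. Of 9 compared, limma called 0, and the median log2 difference of spheres from the ES-type arrays was 1.34. At an unadjusted p under 0.05 were 1 lower and 5 higher, against 2001 of all 10589 genes, lower and higher together. The largest were those of the receptor gene Kit (log2 2.36, limma adjusted p = 0.256) and Dnd1, an RNA-binding protein of germ cells (log2 2.20, limma adjusted p = 0.175). Dppa3 and Nanos3, a germ cell survival gene (log2 1.36, limma adjusted p = 0.156), came next. Alpl (-0.84), Ifitm3 (-0.71) and Prdm1 (-0.51) had negative differences. Kit read 212.6 and 66.5 in spheres of lines 21 and 42 against 11.17 to 72.97 on the ES-type arrays, so its groups overlapped. Dnd1 read 393 in line 42 spheres and 2142 in line 21 spheres against 172 to 223 on the ES-type arrays, so here line 21 was the higher sphere line, and without the line 42 sphere array it passed (limma adjusted p = 0.0266).

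Of the OP9 stroma and fibroblast markers, 7 were compared and limma called 2 lower, Thy1 (log2 -3.97) and Acta2 (log2 -2.77), and 0 higher. Mgp (log2 3.38) and Col3a1 did not pass. Mgp read 327.6 in line 21 spheres and 10.07 in line 42 spheres, against 4.43 to 5.21 on the ES-type arrays. It passed the filter on low values only through line 21 spheres, and its other values lay below their arrays' lower quartiles. The calls of Thy1 and Acta2 were lost without the line 42 sphere array. They were also lost without ES cells with 4OHT (limma adjusted p = 0.0673 and 0.0532) and without ES cells without 4OHT (0.0735 and 0.0903). Of the blood and endothelium markers, 4 were compared and limma called 1 higher, Gata2 (log2 2.59, limma adjusted p = 0.0387), and 0 lower. Gata2 lost its call when any 1 array other than that of reverted cells was left out (limma adjusted p = 0.0959 to 0.116).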
